A study of Bos taurus with 6 samples.

Results

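The 6 genes described here encode enzymes that use, make or interconvert ketone bodies, or that activate butyrate and related short fatty acids with coenzyme A. They are BDH1, BDH2, OXCT1, ACAT1, AACS and ACSM2B, taken by symbol from a list, and all 6 were found among the 23015 rows of the count files. RNA was taken from the longissimus thoracis (LT) muscle of 6 Hanwoo (Korean native) steers, reared conventionally on commercial feeds, and each steer gave 1 library. The high group had a high number of fine marbling particles (NFMP), small flecks of intramuscular fat counted on a photograph of the rib eye, and held steers 3-8, 10-8 and 10-9, aged 32.5, 33.8 and 34.5 months. The low-NFMP group held steers 3-1, 3-3 and 10-16, aged 37.8, 33.7 and 35.4 months. The study reports that the sequenced high-NFMP steers also had a higher marbling score and a larger rib eye area, traits not separated here from particle number. The question was which of these genes differed in expression between steers with many and with few fine particles. BDH1, AACS and ACSM2B had been listed by the study as differing genes on these same libraries, so their being past a threshold here is not independent evidence.

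Ketone bodies are small acids that carry carbon from fat or butyrate through the blood. In cattle much of the circulating β-hydroxybutyrate is made from butyrate in the rumen wall. In muscle, β-hydroxybutyrate is oxidized to acetoacetate by a mitochondrial dehydrogenase (BDH1), acetoacetate receives coenzyme A from succinyl-CoA (OXCT1), and a thiolase (ACAT1) splits the product into acetyl-CoA for the citric acid cycle. In the cytosol, AACS activates acetoacetate directly and thereby feeds fatty acid and cholesterol synthesis. Butyrate itself is activated by acyl-CoA synthetases of the ACSM family and then enters β-oxidation.

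Reads were counted near the poly(A) end of transcripts, with between 16283873 and 17192750 counts in a library. Genes of defining muscle fibre proteins were present in every library, with summed levels between 20114 and 29949 CPM (counts per 1000000 counts of the normalized library) for 9 fast fibre markers and between 8332 and 13279 CPM for 7 slow fibre markers, and the groups overlapped in both sums. Of these 16 markers only the slow fibre light chain MYL3 had an unadjusted p below 0.05 by edgeR, at 3212 ± 194 against 5511 ± 1484 normalized counts (SD, n = 3; log2 fold change -0.78, adjusted p = 0.145), without overlap. Its adjusted p was below 0.05 by DESeq2 and without the filter on low counts. Its log2 fold change is close to that of ACAT1 described below, and its part in that result was not tested. The 7 slow fibre markers together had 4 positive and 3 negative log2 fold changes, with a median of 0.06. The values below are counts normalized to a common library size with TMM factors. A gene was called up- or down-regulated where edgeR's quasi-likelihood test gave an unadjusted p under 0.05 and a fold change over 2, the threshold of the study. Of the 15039 tested genes 3.9% met it, with 2.53% up- and 1.36% down-regulated in high-NFMP steers.

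By this threshold, high-NFMP steers showed down-regulated BDH1 and up-regulated AACS and ACSM2B, whereas ACAT1, BDH2 and OXCT1 were not past it. Adjusted over all tested genes, none of the 6 had a p below 0.05 by edgeR, DESeq2 or limma, although 4 had an unadjusted p below 0.05 by each tool. Of all tested genes, 0.685% had an adjusted p below 0.05 and 11.5% an unadjusted p below 0.05 by edgeR. In 4 of the 6 genes (BDH1, ACAT1, AACS and ACSM2B) the normalized counts of the groups did not overlap, which was so for 17.1% of all tested genes. The median log2 fold change of the 6 genes was 0.21, with 4 positive and 2 negative values, beside a median of 0.02 over all tested genes. All 6 passed the filter on low counts, but 10 counts were reached in 5 libraries for BDH1 and in 4 for ACSM2B, the 2 missing libraries of the latter both being of the low-NFMP group.

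**Figure D1:**
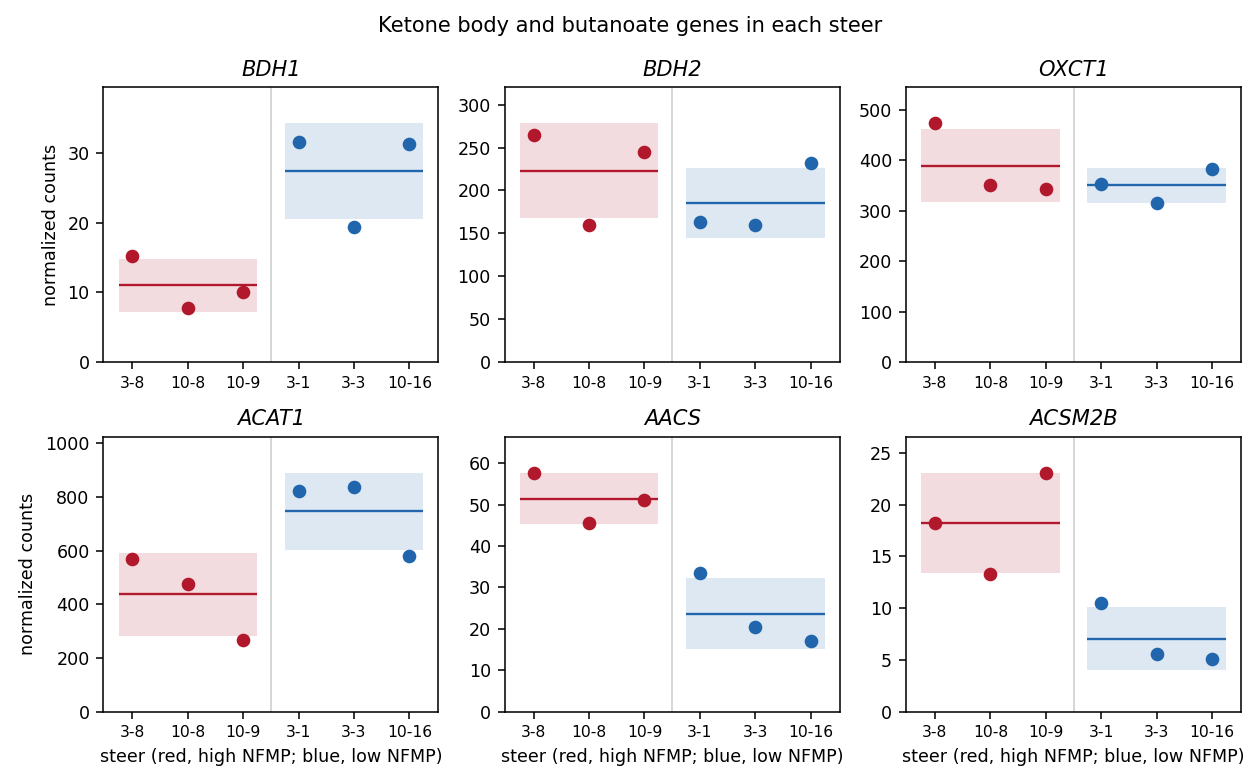
Normalized counts of the 6 genes (vertical axis, from 0) in each of the 6 steers (horizontal axis), with the high-NFMP steers in red and the low-NFMP steers in blue. Lines are group means and shaded bands are 1 SD (n = 3). The red points of BDH1 lie between 7.78 and 15.2, below all blue points, and those of AACS lie between 45.6 and 57.8, above all blue points.

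BDH1, the mitochondrial β-hydroxybutyrate dehydrogenase, had 15.2, 7.78 and 10.0 normalized counts in steers 3-8, 10-8 and 10-9, and 31.6, 19.4 and 31.3 in steers 3-1, 3-3 and 10-16. Every high-NFMP steer lay below every low-NFMP steer, the nearest pair being 3-8 and 3-3. The group means were 11.0 ± 3.81 and 27.4 ± 6.93 (SD, n = 3), and the log2 fold change was -1.30 (standard error 0.50, unadjusted p = 0.0193 and adjusted p = 0.323 by edgeR). The gene was rarely counted. Steer 10-8 gave 7 reads, with a 95% exact Poisson interval from 2.81 to 14.4, and steer 3-3 gave 21, with an interval from 13.0 to 32.1. These intervals cover counting error only, as the reads carry no molecular identifiers and may be copies of one molecule. BDH1 was no longer past the threshold without steer 10-8 (log2 fold change -1.09), 3-1 (-1.19) or 10-16 (-1.17), or with age in months as a term (-1.15, unadjusted p = 0.103 by edgeR's model). In the RefSeq gene table of another cattle assembly, ARS-UCD2.0, a protein-coding gene that has no row in the counts overlaps BDH1.

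BDH2, a cytosolic member of the same dehydrogenase superfamily also named DHRS6, had 264.5, 160.0 and 244.7 normalized counts in the high-NFMP steers, in the order given above. In the low-NFMP steers it had 162.7, 160.1 and 232.2. The groups overlapped, with steer 10-8 at the level of steers 3-1 and 3-3, and steer 10-16 near 10-9. Its log2 fold change was 0.27 (standard error 0.25, unadjusted p = 0.303 by edgeR), on the other side of 0 from that of BDH1. Leaving out any 1 steer kept it between 0.13 and 0.50.

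OXCT1, the transferase that commits acetoacetate to oxidation in mitochondria outside the liver, had 474.3, 352.3 and 343.0 normalized counts in the high-NFMP steers and 354.0, 314.6 and 383.6 in the low-NFMP steers. Steer 3-8 stood above the other 5 steers, which lay between 314.6 and 383.6 with both groups mixed. The means were 389.8 ± 73.3 and 350.8 ± 34.6 (SD, n = 3), and the log2 fold change was 0.15 (standard error 0.20, unadjusted p = 0.465 by edgeR). Without steer 3-8 it was -0.015.

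ACAT1, the mitochondrial acetoacetyl-CoA thiolase, had 568.5, 475.6 and 265.8 normalized counts in the high-NFMP steers and 823.9, 836.5 and 581.5 in the low-NFMP steers. The groups were barely apart, with steer 3-8 just below steer 10-16, whereas steers 3-1 and 3-3 stood well above both. As CPM of the library total, with no TMM factor, steer 3-8 (34.5 CPM) lay above steer 10-16 (33.5 CPM) and the groups overlapped. The log2 fold change was -0.78 (standard error 0.26, unadjusted p = 0.0102 and adjusted p = 0.257 by edgeR), which corresponds to a level 1.71-fold higher in the low-NFMP group, short of the limit of 2. It ranged from -0.50 without steer 10-9 to -1.02 without steer 3-8, and of these 6 fits ACAT1 passed the threshold only in the latter.

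AACS, the cytosolic acetoacetyl-CoA synthetase of lipid synthesis, had 57.8, 45.6 and 51.1 normalized counts in the high-NFMP steers and 33.5, 20.4 and 17.2 in the low-NFMP steers. The high-NFMP steers lay close together and above all low-NFMP steers, of which 3-1 was the nearest to them. The means were 51.5 ± 6.11 and 23.7 ± 8.65 (SD, n = 3), and the log2 fold change was 1.12 (standard error 0.39, unadjusted p = 0.0128 and adjusted p = 0.279 by edgeR). Without steer 10-16 the log2 fold change was 0.97, below the fold limit, and AACS stayed past the threshold without any of the other 5 steers. Adipocyte markers were also read in these libraries. All 7 (ADIPOQ, PLIN1, CIDEC, CIDEA, FABP4, LEP and THRSP) had a positive log2 fold change, with a median of 0.69, and 3 had an unadjusted p below 0.05 by edgeR, although none was past the threshold. Of the 15039 tested genes, 7805 had a positive value, 11.5% had such a p and 3.9% were past the threshold. THRSP was past it by DESeq2, CIDEC (with an adjusted p below 0.05) and THRSP with the number that begins the steer label as a term, and between 0 and 3 of the 7 without 1 steer, with PLIN1, CIDEC and THRSP past it without steer 10-9. In ADIPOQ, CIDEC and CIDEA every high-NFMP steer lay above every low-NFMP steer, as in 1199 of the 15039 tested genes, whereas the groups overlapped in the rest. In LEP, steer 3-8 had 193.6 normalized counts, whereas steers 10-8 and 10-9 (47.8 and 52.2) lay below all low-NFMP steers (63.2 to 75.9). Their summed level was 525.1 CPM in steer 3-8, which stood far above the rest, and between 171.0 and 226.0 CPM in 4 of the other steers, with 155.5 CPM in steer 10-16. In bulk muscle, fewer cells of a type and less RNA per cell cannot be told apart, and the part of fat cells in the AACS difference was not tested. Without steer 3-8 the log2 fold change of AACS was 1.02 and the median of the adipocyte markers was 0.20. With age as a term these values were 1.41 and 0.32.

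ACSM2B, a mitochondrial medium-chain acyl-CoA synthetase best known from liver and kidney, had 18.2, 13.3 and 23.1 normalized counts in the high-NFMP steers and 10.5, 5.55 and 5.05 in the low-NFMP steers. The groups did not overlap, but steers 10-8 and 3-1, with 12 and 11 reads, differed by less than counting error (95% exact Poisson intervals 6.20 to 21.0 and 5.49 to 19.7). The log2 fold change was 1.36 (standard error 0.56, unadjusted p = 0.0299 and adjusted p = 0.373 by edgeR). ACSM2B was no longer past the threshold without steer 3-8, 10-9, 3-3 or 10-16, with log2 fold changes of 1.36, 1.16, 1.21 and 1.21 and an unadjusted p of 0.0638, 0.110, 0.0916 and 0.0906 by edgeR. The RefSeq table gives ACSM2A as another name of this gene and places it between ACSM5 and ACSM1, paralogs with which reads could be shared if multiple alignments were counted, 1 of the routes the methods name. ACSM1, the butyryl-CoA synthetase of the cluster, had 229.5 ± 120 against 150.0 ± 30.3 normalized counts (SD, n = 3; log2 fold change 0.61, unadjusted p = 0.0790 by edgeR). The groups overlapped in ACSM1, as they did in ACSM5, with 110.2 ± 34.4 against 102.8 ± 7.69 (SD, n = 3; log2 fold change 0.10). ACSM4 was at 122.8 ± 21.8 against 169.4 ± 19.0 (SD, n = 3; log2 fold change -0.46, unadjusted p = 0.0755 by edgeR).

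**Figure D2:**
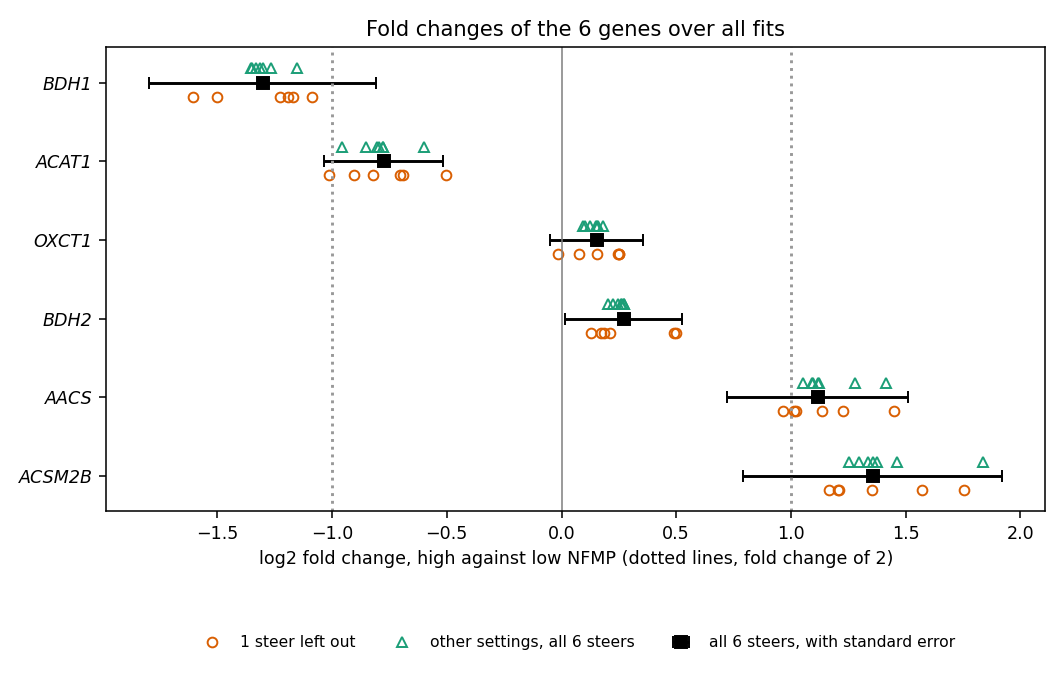
Log2 fold change of each gene (horizontal axis, high against low NFMP; the vertical axis lists the genes), with black squares for the fit on all 6 steers and its standard error as bars, orange circles for the 6 fits without 1 steer, and green triangles for the 7 other settings. Dotted lines mark a fold change of 2. BDH1 and ACAT1 stay left of 0 and AACS and ACSM2B right of it in all fits. The groups did not overlap in BDH1, ACAT1, AACS or ACSM2B, so leaving out 1 steer could hardly change their sign. The circles of AACS run from 0.97 to 1.45, and OXCT1 lies at 0.15 with 1 circle just left of 0.

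OXCT1 overlapped between the groups, so the other genes of acetoacetate use were also set against it within each library, where no library scaling enters. These ratios were chosen after the values were seen and are given without a test. For every 100 counts of OXCT1, the high-NFMP steers had 3.21, 2.21 and 2.92 counts of BDH1 and the low-NFMP steers 8.92, 6.18 and 8.16. The ratio of ACAT1 to OXCT1 was 119.9, 135.0 and 77.5 per 100 in the high-NFMP steers and 232.7, 265.9 and 151.6 in the low-NFMP steers. AACS per 100 counts of OXCT1 was 12.2, 12.9 and 14.9 in the high-NFMP steers and 9.46, 6.47 and 4.47 in the low-NFMP steers. In these 3 ratios the groups did not overlap, which was so for 17.1% of all tested genes set against OXCT1, and steer 3-8 had the highest OXCT1 count of its group. The ratio of BDH1 to ACAT1, both lower in the high-NFMP group, did overlap (2.69 ± 1.07 against 3.85 ± 1.53 per 100 counts, SD, n = 3).

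**Figure D3:**
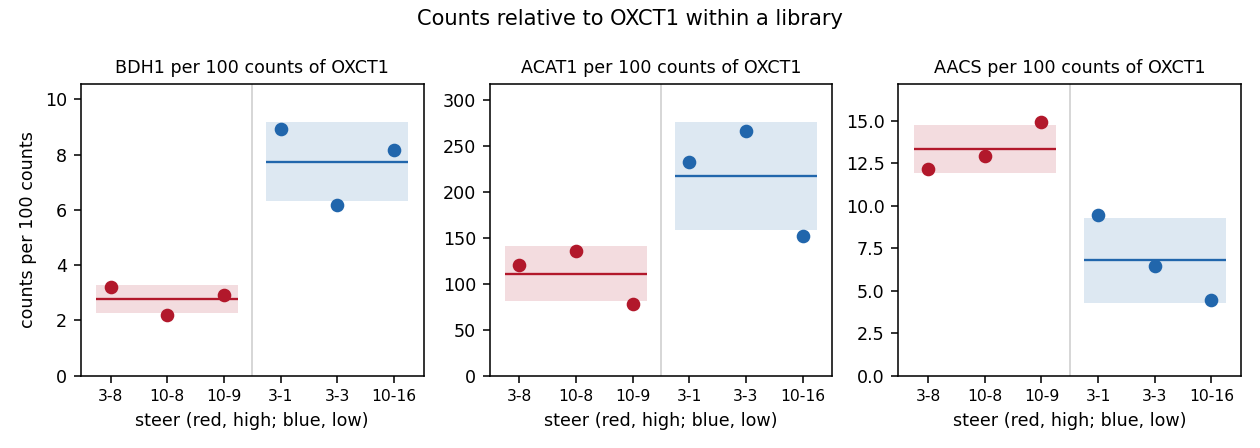
Counts of BDH1, ACAT1 and AACS per 100 counts of OXCT1 in the same library (vertical axes, from 0) for each steer (horizontal axes), high NFMP in red and low NFMP in blue, with the group mean as a line and 1 SD (n = 3) as a band. Relative to OXCT1, all red points of BDH1 and ACAT1 lie below the blue ones and all red points of AACS above them.

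Steer labels begin with 3 or 10, a number whose meaning the labels and methods do not state, and both groups hold steers of either number. BDH1 was lower in the high-NFMP steers within each number, with a log2 ratio of normalized counts of -0.75 for number 3 (1 high against 2 low steers) and -1.81 for number 10 (2 high against 1 low). ACAT1 had -0.55 and -0.65, AACS 1.10 and 1.49, and ACSM2B 1.18 and 1.85. In BDH1, ACAT1, AACS and ACSM2B the groups did not overlap, so their sign within each number was fixed beforehand. BDH2 and OXCT1 changed sign between the numbers, from 0.71 to -0.20 and from 0.50 to -0.14. With this number as a term in the fit, the same 3 genes were past the threshold.

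The other genes of ketone body and butanoate metabolism were described in the same way. Of 45 further genes listed for these pathways, 40 had a row and 31 were tested, and none was past the p and fold threshold by edgeR, by DESeq2 or by limma, while 4 had an unadjusted p below 0.05 by edgeR. Over all tested genes these shares were 3.9% and 11.5%, so with 31 genes both counts are near the background. Their median log2 fold change was -0.05 and all lay between -0.62 and 0.79, inside the range from the 5th to the 95th percentile of all tested genes (-0.71 to 0.84). HMGCLL1, an enzyme of ketone body synthesis outside mitochondria, was 1 of the 4 genes with an unadjusted p below 0.05, at 131.5 ± 12.4 against 85.1 ± 12.9 (SD, n = 3; log2 fold change 0.63, unadjusted p = 0.0275 by edgeR).

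**Figure D4:**
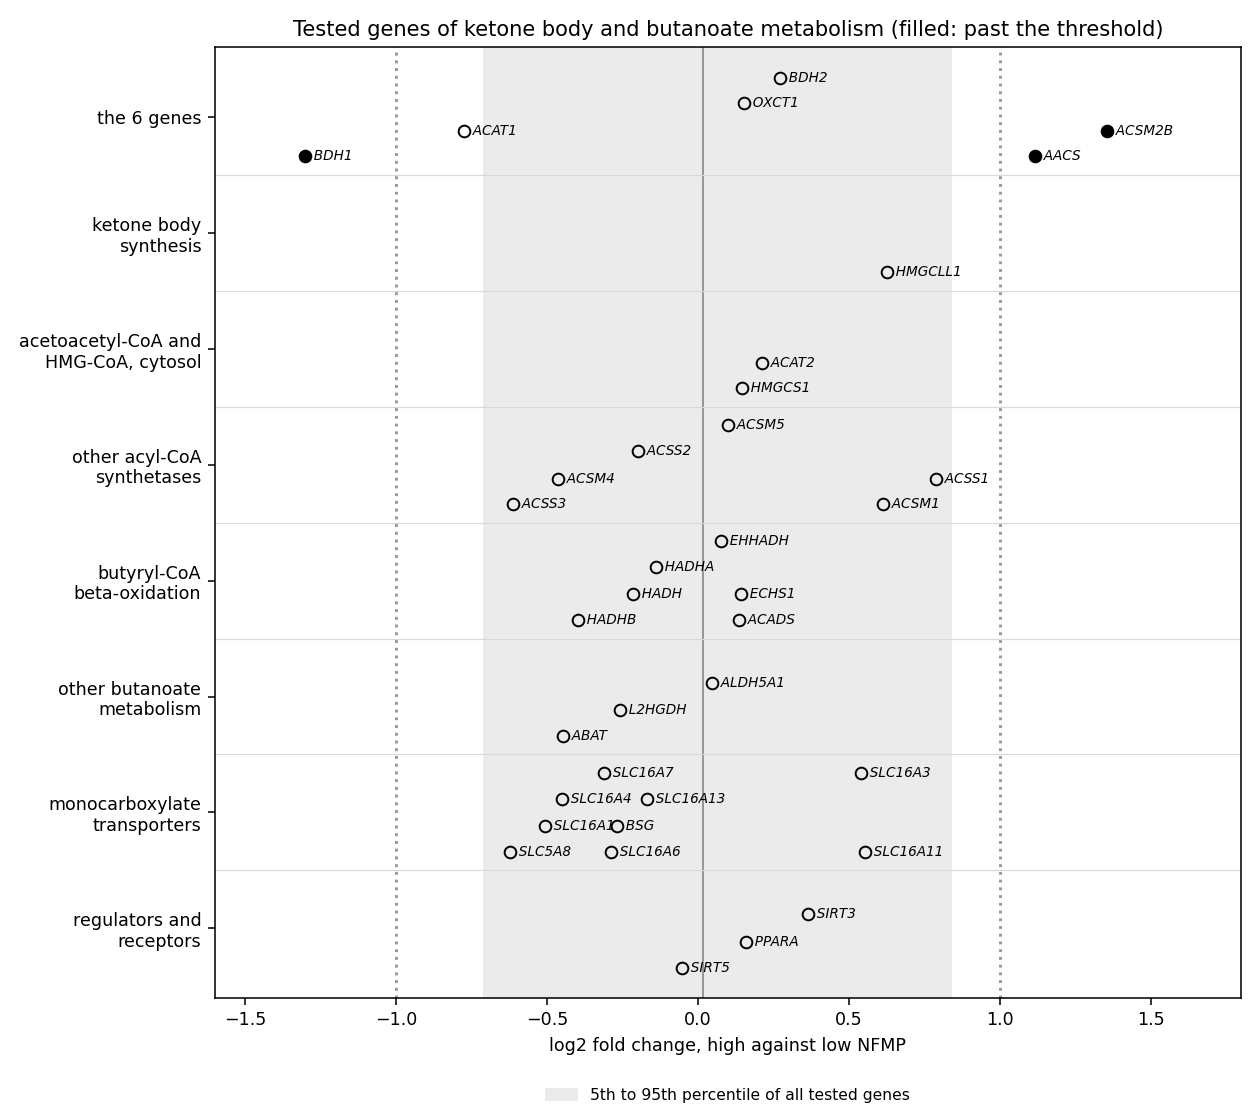
Log2 fold change (horizontal axis, high against low NFMP) of tested genes of ketone body and butanoate metabolism, in rows by role. Filled points are past the p and fold threshold, dotted lines mark a fold change of 2, and the grey band spans the 5th to 95th percentile of all 15039 tested genes. BDH1, AACS and ACSM2B are the filled points, ACAT1 is the open point left of the band, and the 30 other pathway genes drawn lie inside the band.

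Among the remaining genes of that list, the transporters that carry ketone bodies and lactate across membranes, with their chaperone BSG, gave 7 negative and 2 positive log2 fold changes, beside 7234 negative values among the 15039 tested genes. Their median was -0.29, and -0.04 with the number that begins the steer label as a term. In the fits without 1 steer it ranged from -0.52 (without steer 3-8) to -0.15 (without steer 10-9). SLC16A1, which takes up ketone bodies and lactate, had 292.4 ± 75.2 against 415.1 ± 125 normalized counts (SD, n = 3; log2 fold change -0.51, unadjusted p = 0.0612 by edgeR), with overlap between the groups. SLC16A3, the lactate exporter of glycolytic fibres, had 487.0 ± 72.7 against 335.2 ± 52.5 (SD, n = 3; log2 fold change 0.54, unadjusted p = 0.0187 by edgeR), without overlap. The genes listed under butyryl-CoA oxidation, ACAT1 not among them, had log2 fold changes between -0.40 and 0.14. The lowest was that of HADHB, the thiolase subunit of the trifunctional protein (1359 ± 209 against 1791 ± 323 normalized counts, SD, n = 3). Of the acetate and propionate activating enzymes, mitochondrial ACSS1 was at 0.79 (unadjusted p = 0.0285 by edgeR) whereas ACSS3 at -0.61 (unadjusted p = 0.0112 by edgeR), and ACSS1 passed the threshold without steer 10-8 or 10-16.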

How the data were processed

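LT muscle RNA from 3 high-NFMP and 3 low-NFMP steers was sequenced from 3′ mRNA libraries. The authors deposited raw read counts per gene symbol, as whole numbers without normalization. Their methods name Tophat2 with HTSeq, and Bowtie2 with unique and multiple alignments. Of these, the labels' processing notes name Bowtie2, with bedtools, and the methods take the differing genes from the unique and multiple alignments. The use of strand in counting is not stated. Groups came from the sample labels, with 1 library per steer.

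The analysis used edgeR 4.0.16 in R 4.3.3, with the default filter (minimum count 10, minimum total 15, 15039 of 23015 rows kept), TMM factors between 0.916 and 1.083, robust dispersions and the quasi-likelihood test. Benjamini-Hochberg adjustment was over all tested genes. The smallest p of an exact permutation test of 3 against 3 steers is 0.1, and no such test was run. The tests used here borrow the spread of other genes. Alternatives were no filter, RLE factors, library totals without factors, DESeq2 1.42.0, limma 3.58.1 (voom) after quantile normalization, a term for the number that begins the steer label or for age, and fits that drop 1 steer. The fits were tested on simulated data. The 6 genes and the lists of pathway and marker genes were chosen with earlier results of these data known. The named genes were the 6, the pathway genes past the threshold, SLC16A1 and HADHB, and for each of the 6 with a mean of at least 100 normalized counts the 3 genes most like it. The rule also held other genes, which are not reported here. HMGCLL1, SLC16A3, ACSM1, ACSM4, ACSM5, ACSS1, ACSS3, PPARA, SIRT3, SIRT5, AIF1, CD163, CSF1R, CDH5, PDGFRA, ADIPOQ, CIDEA, PLIN1, CIDEC, THRSP, LEP and MYL3 were named after their values were seen. Gene neighbours are those of RefSeq on ARS-UCD2.0, not the build the study names, UMD3.1, so no coordinates are given.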

Additional observations from a re-analysis of the deposited data

How the results depend on the processing

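The number of the 6 genes past the p and fold threshold was 3 with all steers and between 0 and 3 in the fits without 1 steer. It was 0 without steer 10-16, where 2 of the 6 (AACS and ACAT1) still had an unadjusted p below 0.05 by edgeR, and 2 with age as a term. In the other 6 settings with all steers, BDH1, AACS and ACSM2B were the genes past the threshold. Over all genes, 586 were past the threshold, between 630 and 744 without 1 steer, and 969 without a filter on low counts, where 23015 rows were tested. The log2 fold change of OXCT1 lay between -0.015 and 0.25 in the fits without 1 steer and kept its sign in the 7 other settings. In the fits without 1 steer, BDH1 ranged from -1.61 to -1.09, ACAT1 from -1.02 to -0.50, AACS from 0.97 to 1.45 and ACSM2B from 1.16 to 1.76, and their adjusted p lay between 0.159 and 0.638 by edgeR. The cause of these shifts was not tested. BDH1 and ACSM2B had at most 33 and 23 reads in a library, with a counting error between 17.4% and 44.7% of the count, beside a fitted variation between steers of 34.7% and 36.3%. No paired analysis was possible because the labels pair no high-NFMP steer with a low-NFMP steer. The number that begins the steer label, shared by steers of both groups, was fitted as a term and left 3 of the 6 genes past the threshold.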

Other observations

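Across the 6 libraries, AACS and ACSM2B had the highest Pearson r of log2 CPM of the 15 pairs among the 6 genes before centring (0.97, n = 6 libraries), and 0.85 after each group was centred on its mean. BDH1 and OXCT1 had r = 0.05 over the libraries but 0.88 after centring, the highest of the 15 pairs on that scale, steer 3-8 being the highest of its group and steer 3-3 the lowest of its group in both genes. These values describe 6 points that share the 2 groups and, for AACS, ACSM2B and BDH1, low counts. Of 8729 genes with a mean of at least 100 normalized counts, those most like ACAT1 over the 6 libraries were GUF1, NCBP3 and PLRG1 (r = 0.99 each), and 251 genes had r above 0.9 with it. For OXCT1 they were ABLIM3 (0.98), MAP1A (0.97) and MAN1A1 (0.96), with 34 genes above 0.9, and for BDH2 they were CHSY3, AP5Z1 and ASAP2 (each 0.98), with 55. With 6 libraries and this many genes, high values are common.

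Genes known to regulate ketone body metabolism overlapped between the groups. PPARA, the fatty acid sensor that drives ketogenic genes in liver, was at 532.4 ± 53.6 against 477.0 ± 102 normalized counts (SD, n = 3), the high-NFMP steers first. SIRT3, the mitochondrial deacetylase, was at 208.2 ± 36.4 against 161.6 ± 17.5 (SD, n = 3), and SIRT5 at 1433 ± 199 against 1484 ± 308 (SD, n = 3). None of the 3 had an unadjusted p below 0.05 by edgeR. The remaining marker lists, of 6, 5 and 5 genes, gave 1 gene past the threshold, the macrophage marker AIF1. Over all tested genes the share was 3.9%, so 1 gene in lists this short is near the background. AIF1 had 70.8 ± 40.8 against 34.3 ± 13.0 normalized counts (SD, n = 3; log2 fold change 1.04), with overlap between the groups. It was not past the threshold by limma after quantile normalization, with library totals alone, with age as a term, or without steer 3-8, 3-1 or 10-16. Without steer 3-8 the macrophage marker CD163 was past it instead, lower in the high-NFMP group. The summed levels of the preadipocyte and fibroblast, endothelial and macrophage markers overlapped between the groups, at 714.6 to 892.8 against 563.3 to 727.9 CPM, 55.6 to 85.1 against 56.9 to 74.2 CPM, and 18.7 to 36.0 against 18.2 to 35.8 CPM. Within these lists the groups did not overlap in PDGFRA (log2 fold change -0.51, unadjusted p = 0.0391 by edgeR), CDH5 (-0.16) and CSF1R (0.73), beside 17.1% of all tested genes. PDGFRA was the 1 negative value of its list, beside 5 positive ones.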
